A study of Mus musculus with 6 samples.

Results

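The genes described here encode components of the epithelial tight and adherens junctions other than the claudins. They are Ocln, Marveld2, F11r, Tjp1, Tjp3, Cgn, Cdh1, Ctnnb1 and Ctnna1, chosen by name, with the rule using none of their values although earlier results of these data were known. All 9 were listed among the 28752 genes of the deposited table, and all 9 were among the 18348 genes that passed the filter on low counts. RNA sequencing was performed in intestinal crypt stem cells carrying an adenoviral vector (labelled WT, n = 3) and in cells overexpressing circEZH2_005 from an adenovirus (n = 3). circEZH2_005 is a circular RNA made from exons of the Ezh2 gene. According to the study, the cells were Lgr5+ intestinal stem cells (ISCs) of Lgr5-GFP mice, sorted by flow cytometry for GFP before organoid culture. All 6 samples were subjected to hypoxia/reoxygenation (H/R), with 4 h in 2% O2. Infection had lasted 72 h according to the labels. The organoid methods of the study state a different interval, but for transfection before H/R and not for the adenovirus. Vector and circEZH2_005 were thus compared after H/R only, and normoxic cells were not analysed here. The labels give no age for the Lgr5-GFP mice, and the methods state an age only for the C57BL/6 mice of the study. The labels also do not say whether the 3 samples of a group came from separate animals or cultures, so p-values measure the spread between these samples, which may be technical.

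Tight junctions seal the space between neighbouring epithelial cells close to the lumen and set how freely ions and solutes pass between them. They consist of transmembrane proteins bound to scaffold proteins that connect them to the actin cytoskeleton. Adherens junctions lie just below and hold the cells together through E-cadherin, whose cytoplasmic tail binds β-catenin, which in turn binds α-catenin and thereby actin. β-catenin that is not held at the membrane is also the transcriptional effector of Wnt signalling, on which ISCs depend. Loss of these seals accompanies intestinal ischemia, and the study stained organoids for occludin and ZO-1, the products of Ocln and Tjp1. It reports less of both proteins after circEZH2_005 depletion under H/R, and an opposite effect of overexpression on occludin. Protein was not measured here, and mRNA is a different measure. The comparison below asks whether the corresponding mRNAs differed between vector and circEZH2_005 samples.

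The 9 mRNAs were abundant and differed little between the groups. Their estimated fold changes, circEZH2_005 relative to vector, lay between 0.897 for Tjp3 and 1.27 for Ctnna1, and the 95% intervals of all 9 lay inside 0.736- to 1.50-fold. With edgeR's quasi-likelihood test and Benjamini-Hochberg adjustment over all genes tested, 0 of the 9 passed an adjusted p of 0.05, where 3.67% of all genes tested did (2.69% as higher and 0.986% as lower in circEZH2_005). At an unadjusted p of 0.05, 2 of the 9 passed, F11r and Ctnna1, both higher in circEZH2_005, where 23.7% of all genes passed in either direction, 14.0% as higher and 9.72% as lower. With DESeq2, 1 of the 9 had an adjusted p under 0.05, Ctnna1, higher in circEZH2_005, where 13.6% of all genes did and 8.96% as higher. A rule of more than 2-fold or less than 0.5-fold at an edgeR p under 0.05 was met by 7.56% of genes and by 0 of the 9.

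Read depth was 71506487 to 79919893 counts per sample, and the 9 genes had between 2551 and 80767 counts in a sample, so that counting error alone was at most 1.98% of a value. CPM below is a gene's count relative to the library total scaled by TMM, a normalisation that assumes most genes do not differ. FPKM is the authors' value relative to transcript length and library size. For the labelled cell type, 8 markers of ISCs and 8 of intestinal epithelium were read, and all were detected and tested. At this depth their detection does not settle the cell type. In vector samples Lgr5 averaged 15.5 CPM and Olfm4 1758 CPM, and the epithelial markers Epcam, Krt20 and Vil1 averaged 1323, 777 and 1754 CPM. The mesenchymal marker Col1a1 averaged 0.73 CPM in vector samples. In this bulk RNA, fewer cells of a type and less RNA per cell cannot be told apart. The summed CPM of the epithelial markers was 7369 to 7725 in vector and 9354 to 12229 in circEZH2_005 samples, and that of the ISC markers was 2181 to 3003 in vector and 1448 to 2105 in circEZH2_005 samples. Within the epithelial sum, Krt8 averaged 2086 CPM in vector and 3099 CPM in circEZH2_005, Krt20 777 and 1761 CPM, and Vil1 1754 and 2599 CPM. The other epithelial markers differed less, with Epcam at 1323 and 1481 CPM, Krt19 at 1191 and 1242 CPM, and Cdx1 lower in circEZH2_005 at 124 and 105 CPM. Olfm4 made up most of each ISC sum and by itself overlapped between the groups. It measured 1447, 2314 and 1511 CPM in vector and 1383, 1003 and 1565 CPM in circEZH2_005 samples. The 12 leukocyte markers summed to 85.9 to 222 CPM in vector and 291 to 499 CPM in circEZH2_005 samples. The 9 mesenchymal markers summed to 13.5 to 24.7 and 25.7 to 44.3 CPM, and the 9 endothelial markers to 3.99 to 5.19 and 6.08 to 7.95 CPM, with Cdh5, Kdr, Emcn, Cldn5 and Flt1 too low to be tested. Vim alone averaged 12.2 CPM in vector and 26.8 CPM in circEZH2_005, and mesenchymal estimates were positive for 5 and negative for 4 of the 9. Pecam1 averaged 0.98 and 3.74 CPM, whereas Esam averaged 2.19 and 1.23 CPM. The part of these shifts in the results below was not tested.

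**Figure D1:**
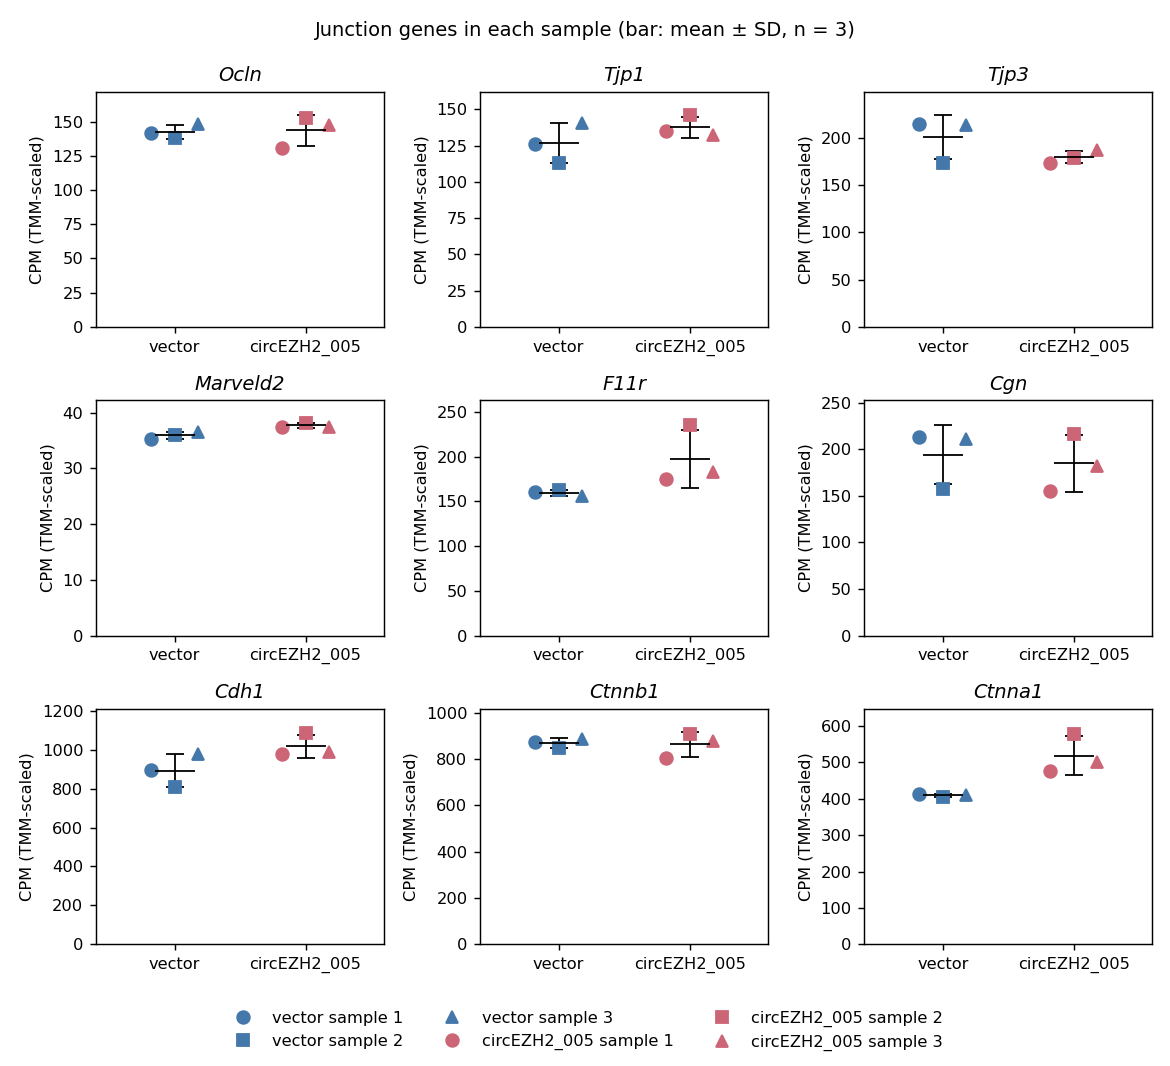
CPM (y axis, linear from 0) of the 9 junction genes in the 3 vector (blue) and 3 circEZH2_005 (red) samples. Circles, squares and triangles are samples 1, 2 and 3 of a group, and bars show the mean ± SD. The groups do not overlap for Marveld2, F11r, Cdh1 and Ctnna1, in each of which circEZH2_005 lies higher, and overlap for the other 5.

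Ocln encodes occludin, a transmembrane protein of the tight junction strand (chromosome 13, 100496507 to 100552718, minus strand, GRCm38). Its level was 142, 138 and 148 CPM in vector samples 1 to 3 and 131, 153 and 147 CPM in circEZH2_005 samples 1 to 3. The lowest and the highest of the 6 values were both circEZH2_005 samples, and the groups overlapped. edgeR estimated a log2 fold change of 0.01 (95% interval -0.19 to 0.21, standard error 0.087, adjusted p = 0.961), which corresponds to a fold change between 0.876 and 1.16.

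Marveld2 encodes tricellulin, a relative of occludin that concentrates where 3 cells meet (chromosome 13, 100595957 to 100616971, minus strand). It lies 43238 bp from Ocln on the same strand. Its level was 35.2, 36.1 and 36.5 CPM in vector and 37.5, 38.2 and 37.5 CPM in circEZH2_005 samples. Every circEZH2_005 sample was above every vector sample, but the means of 35.9 ± 0.66 and 37.7 ± 0.43 CPM (SD, n = 3) were only 4.92% apart, and the log2 fold change of 0.07 (standard error 0.070, 95% interval -0.09 to 0.23) had an adjusted p of 0.606 in edgeR. Marveld2 had the smallest coefficient of variation within circEZH2_005 of the 9 genes, 1.14%, and one of 1.83% within vector.

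F11r encodes JAM-A, an immunoglobulin-like adhesion molecule of the tight junction that also serves as a receptor on leukocytes and platelets (chromosome 1, 171437535 to 171464603, plus strand). Its level was 160, 163 and 156 CPM in vector samples, and 175, 235 and 183 CPM in circEZH2_005 samples. All circEZH2_005 values were above all vector values, and circEZH2_005 sample 2 stood well above the others. The vector samples spread little, at 159 ± 3.52 CPM, against 198 ± 32.4 CPM in circEZH2_005 (SD, n = 3). In edgeR F11r had a log2 fold change of 0.31 (95% interval 0.03 to 0.59, standard error 0.12) and an adjusted p of 0.171, its p being 0.0333 before adjustment in the same quasi-likelihood test. Without circEZH2_005 sample 2 the log2 fold change was 0.17. The summed leukocyte markers were also higher in circEZH2_005, but highest in sample 1, with 499, 389 and 291 CPM in samples 1 to 3, and their part in the F11r values was not tested. The study sorted the cells for Lgr5-GFP before culture, and the leukocyte marker Ptprc had 1650 to 14672 counts per sample.

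The F11r promoter is shown because F11r had one of the 2 largest differences and held TGANTCA, the sequence recognised by AP-1. Among the 11 promoter windows of 7 members, that of F11r was the only one with this sequence in the 250 bases before an annotated start. The match lies 109 bases before the RefSeq start, at chr1:171437437-171437473 on the plus strand of GRCm38.p6, and is in capitals.
F11r: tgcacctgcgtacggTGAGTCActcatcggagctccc
The same window holds CACCTG, the reverse complement of CAGGTG, an E-box bound by Snail and ZEB repressors, 122 bases before the start. TGANTCA, which reads alike on both strands, occurred in 6.75% of 32851 RefSeq promoter windows of 250 bases, and CAGGTG on either strand in 17.2%. Windows were found for 7 of the 9 genes, 11 windows in all. Cdh1 and Ctnna1 had none, so neither sequence was sought in them. Among the 11 windows, CAGGTG on either strand also stood before 2 annotated starts of Tjp3, by 108 and 17 bases, and at 2 places in Ocln, 213 and 68 bases before a start. The Tjp3 match shown is the one that lies outside the deposited gene limits, 108 bases before its start, in the gene with the lowest fold change (chr10:81291669-81291704, minus strand), in capitals here.
Tjp3: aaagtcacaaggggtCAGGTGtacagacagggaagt
A match in these letters is a description and not a site of binding.

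Tjp1 encodes ZO-1, the scaffold that joins claudins and occludin to actin (chromosome 7, 65296165 to 65527696, minus strand). Its level was 126, 113 and 141 CPM in vector and 135, 146 and 132 CPM in circEZH2_005 samples. Vector samples 1 and 2 were the lowest and vector sample 3 lay within the range of circEZH2_005. In edgeR its log2 fold change was 0.12 (95% interval -0.11 to 0.35, standard error 0.10, adjusted p = 0.524). It was 0.045 without vector sample 2, 0.20 without vector sample 3 and 0.076 without circEZH2_005 sample 2.

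Tjp3 encodes ZO-3, a scaffold of the same family found mainly in epithelia (chromosome 10, 81273207 to 81291581, minus strand). Its level was 214, 173 and 213 CPM in vector and 174, 178 and 187 CPM in circEZH2_005 samples. Vector sample 2 was the lowest of all 6, and the other vector samples were above every circEZH2_005 sample. In edgeR this gave a log2 fold change of -0.16 (95% interval -0.40 to 0.08, standard error 0.10, adjusted p = 0.405), the lowest of the 9, and of -0.25 without vector sample 2. Apba3 overlaps Tjp3 on the other strand with 2332 to 3029 counts per sample, against at least 12955 for Tjp3, and as no strand setting was stated for the counting, reads of the overlapping stretch cannot be told apart.

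Cgn encodes cingulin, which binds ZO-1 and links the junction to myosin and microtubules (chromosome 3, 94760069 to 94786492, minus strand). Its level was 214, 157 and 211 CPM in vector and 155, 217 and 182 CPM in circEZH2_005 samples. Each group held both a low and a high value, and Cgn had the widest spread of the 9 genes, with coefficients of variation of 16.4% and 16.6%. The log2 fold change of -0.07 therefore had the largest standard error, 0.16 (95% interval -0.44 to 0.30, adjusted p = 0.837 from edgeR).

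Cdh1 encodes E-cadherin (chromosome 8, 106603351 to 106670246, plus strand) and had the highest FPKM of the 9 genes. In CPM it measured 896, 807 and 977 CPM in vector and 980, 1085 and 989 CPM in circEZH2_005 samples. The groups did not overlap, although vector sample 3 and circEZH2_005 sample 1 nearly met. edgeR estimated a log2 fold change of 0.19 (95% interval -0.05 to 0.43, standard error 0.10, adjusted p = 0.314), and 0.12 without vector sample 2.

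Ctnnb1 encodes β-catenin (chromosome 9, 120929216 to 120960507, plus strand). It measured 874, 848 and 888 CPM in vector and 804, 908 and 879 CPM in circEZH2_005 samples. The circEZH2_005 samples held both the lowest and the highest value. edgeR estimated a log2 fold change of -0.01 (95% interval -0.21 to 0.19, standard error 0.086, adjusted p = 0.963). Ulk4, which overlaps it on the other strand, had 7 to 26 counts per sample, against at least 63016 for Ctnnb1.

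Ctnna1 encodes α-catenin (chromosome 18, 35118859 to 35254779, plus strand) and had the largest estimate and the smallest p of the 9. It measured 414, 405 and 410 CPM in vector and 476, 579 and 500 CPM in circEZH2_005 samples. The vector values lay close together and every circEZH2_005 value was clearly above them. The means were 410 ± 4.71 and 518 ± 54.0 CPM (SD, n = 3), and the log2 fold change was 0.34 (standard error 0.097, 95% interval 0.11 to 0.56). Its p was 0.0085 and its adjusted p was 0.0874 in edgeR, which does not pass, whereas the adjusted p in DESeq2 was 0.0168. Without circEZH2_005 sample 2, the highest, the log2 fold change was 0.25. Lrrtm2, which lies within Ctnna1 on the other strand, had 16 to 33 counts per sample, against at least 29998 for Ctnna1.

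**Figure D2:**
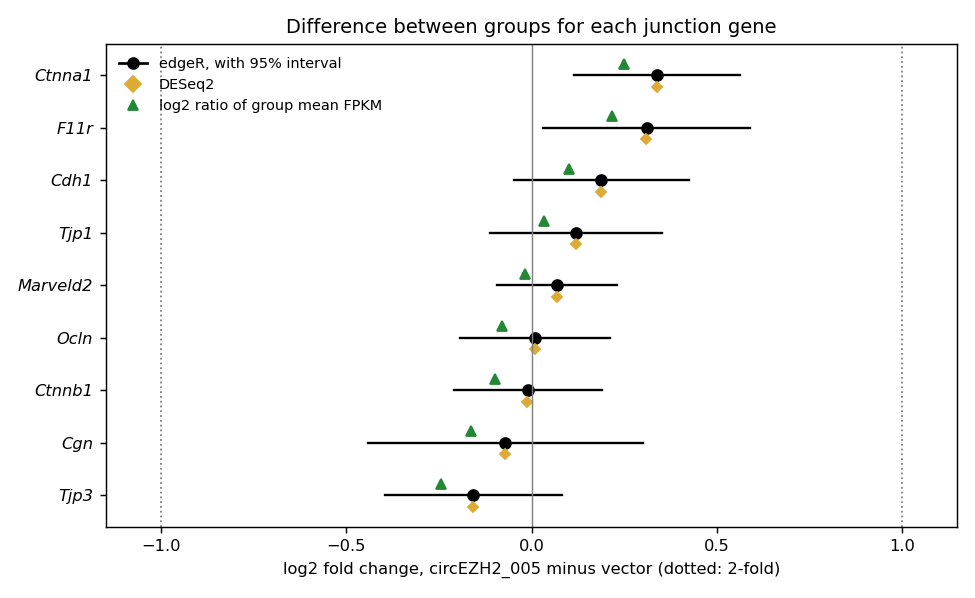
log2 fold change, circEZH2_005 minus vector (x axis), of each junction gene, ordered by the edgeR estimate. Black points and lines are the edgeR estimate and its 95% interval, diamonds are DESeq2 and triangles are the log2 ratio of group mean FPKM, and dotted lines mark a 2-fold difference. The intervals of F11r and Ctnna1 lie above 0, those of the other 7 include 0, all 9 lie within the dotted lines, and every FPKM ratio lies to the left of its edgeR estimate.

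Considered together, 6 of the 9 genes had a positive and 3 a negative log2 fold change, with a median of 0.07, against a median of 0.00 and 50.0% positive over all genes tested. The groups did not overlap in CPM for 4 of the 9 genes, all with circEZH2_005 higher, where 16.4% of all genes tested were separated in that direction, 14.2% in the other and 30.6% in either. Among the 5236 genes with a mean CPM at least that of Marveld2, the least abundant of the 9, 39.2% were separated in either direction and 5.27% passed the adjusted p of 0.05 in edgeR. The median absolute log2 fold change of the 9 was 0.12, compared with 0.25 over all genes tested and 0.16 over those 5236. An interval inside 0.5- to 2-fold was found for 9 of the 9, for 59.0% of all genes tested and for 92.2% of those 5236. The sum of the 9 genes was 3074, 2841 and 3180 CPM in vector and 3067, 3539 and 3238 CPM in circEZH2_005 samples, or between 0.294% and 0.330% of all counts, and the groups overlapped.

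Part of the spread within a group was shared by the members. In CPM, vector sample 2 was the lowest vector sample for 7 of the 9 genes, all except Marveld2 and F11r, where it was the lowest for 38.1% of all genes tested. circEZH2_005 sample 2 was the highest circEZH2_005 sample for 8 of the 9, all except Tjp3, where it was the highest for 34.1% of all genes. This order depended on the scaling. In FPKM, vector sample 2 was the lowest for 5 of the 9 (34.8% of all genes) and circEZH2_005 sample 2 the highest for 5 of the 9 (24.4% of all genes). circEZH2_005 sample 1 was the lowest of its group for 8 of the 9 in CPM (34.4% of all genes) and for 2 of the 9 in FPKM (20.7%). Vector sample 3 was the highest of its group for 5 of the 9 in CPM (30.8%) and for 8 of the 9 in FPKM (32.2%). Vector sample 2 also had the highest leukocyte sum (222 CPM) and the highest ISC sum (3003 CPM) of its group, and circEZH2_005 sample 2 had the highest epithelial sum (12229 CPM) and the lowest ISC sum (1448 CPM) of all 6. Of the ISC sum of vector sample 2, Olfm4 alone made up 2314 CPM. Among the vector samples, sample 2 was the highest for Olfm4, Ascl2 and Axin2. It was the lowest for Lgr5, Smoc2, Prom1 and Slc12a2, and Sox9 lay in between.

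The FPKM scale sits lower in circEZH2_005 than the TMM scale does. The median log2 difference over all genes in limma was -0.07 on log2(FPKM + 1) and -0.09 on log2(FPKM + 0.1), and the median of the 9 members was -0.02 on both, which lay above the median gene on either scale. Ocln, Tjp3, Cgn and Ctnnb1 lay below the median gene on log2(FPKM + 1), and Tjp3, Cgn and Ctnnb1 did so on the TMM scale. In FPKM the groups did not overlap for 5 of the 9 genes, where 30.9% of all genes were separated. F11r and Ctnna1 were higher in circEZH2_005, where 12.0% of all genes were separated in that direction, and Ocln, Tjp3 and Ctnnb1 were lower, where 18.9% were. Ocln measured 30.6, 30.6 and 32.5 FPKM in vector and 28.9, 30.1 and 29.6 FPKM in circEZH2_005 samples, a separation that was absent in CPM. Its log2 difference in limma of -0.08 was as large as the shift of the median gene. F11r and Ctnna1 were thus the only members separated in the same direction on both scales. Both scales rest on the same reads, and the share of all genes separated on both was not computed.

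FPKM allowed the levels of the 9 genes to be compared per transcript length. In vector samples Cdh1 was the highest at 181 ± 16.4 FPKM (SD, n = 3) and Ctnnb1 followed at 155 ± 3.15 FPKM, both above every tight junction member. Ctnna1 at 59.0 ± 0.19 FPKM, F11r at 55.4 ± 1.62 FPKM and Tjp3 at 49.8 ± 5.28 FPKM formed the middle. Ocln at 31.2 ± 1.07 FPKM and Cgn at 29.7 ± 4.57 FPKM had overlapping ranges. Tjp1 at 15.0 ± 1.59 FPKM and Marveld2 at 9.82 ± 0.30 FPKM were the lowest. The order by group mean was identical in circEZH2_005 samples, at 194 ± 8.98 FPKM for Cdh1, 145 ± 1.17 for Ctnnb1, 70.1 ± 4.66 for Ctnna1, 64.4 ± 8.09 for F11r, 42.1 ± 1.81 for Tjp3, 29.5 ± 0.65 for Ocln, 26.5 ± 3.06 for Cgn, 15.3 ± 0.90 for Tjp1 and 9.71 ± 0.53 for Marveld2. There, Ctnna1 and F11r overlapped, as did Ocln and Cgn. Among all 28752 listed genes ranked by mean FPKM, the 9 stood between rank 226 (Cdh1) and rank 4404 (Marveld2).

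**Figure D3:**
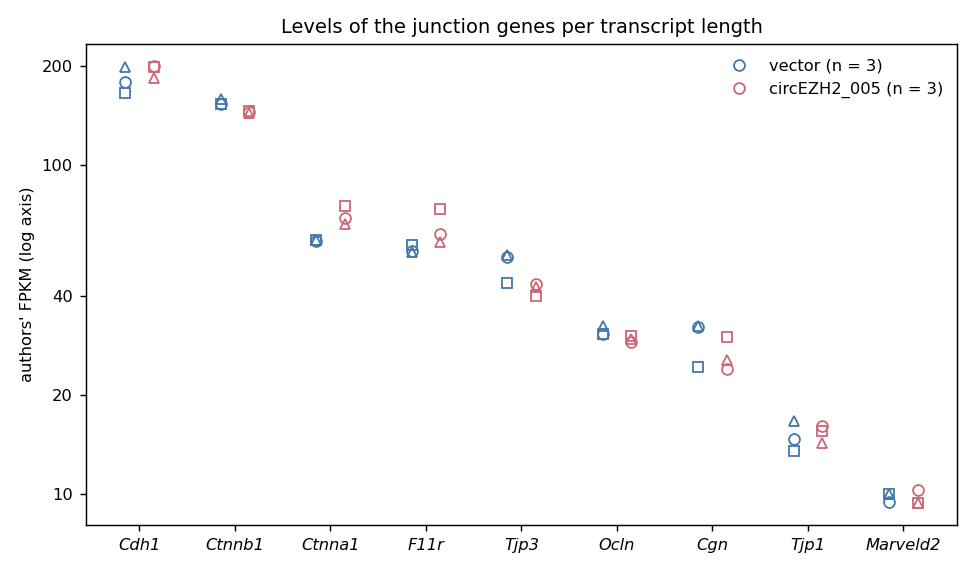
FPKM (y axis, log scale) of the 9 junction genes in vector (blue) and circEZH2_005 (red) samples, ordered by the vector mean. Circles, squares and triangles are samples 1, 2 and 3. Levels run from 181 FPKM for Cdh1 to 9.82 FPKM for Marveld2 in vector, in the same order in both groups.

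The balance between partners was read as the ratio of their FPKM within each sample, which is not affected by library scaling. The ratio of Ctnnb1 to Ctnna1, the proteins of which bind one another, was 2.61, 2.59 and 2.68 in vector and 2.09, 1.94 and 2.18 in circEZH2_005 samples. It was lower in every circEZH2_005 sample, with a log2 difference of -0.35 (SD of the log2 ratio 0.026 in vector and 0.084 in circEZH2_005). The ratio of Tjp1 to Tjp3, the paralogous scaffolds, was 0.280, 0.310 and 0.314 in vector and 0.369, 0.389 and 0.336 in circEZH2_005 samples, higher in every circEZH2_005 sample, with a log2 difference of 0.28. The ratio of Cdh1 to Ctnnb1 was 1.16, 1.08 and 1.25 in vector and 1.38, 1.36 and 1.28 in circEZH2_005 samples, again without overlap, with a log2 difference of 0.20. For these 3 ratios the two-sided exact permutation test gave p = 0.1, the smallest it can give with 3 samples per group, and 0.167 after Benjamini-Hochberg adjustment over the 5 ratios computed. The ratio of Ocln to Marveld2 (log2 difference -0.06, exact permutation p = 0.5) and that of Ocln to Tjp1 (log2 difference -0.12, exact permutation p = 0.2) overlapped between the groups. A ratio shows only that its 2 genes differed unequally.

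**Figure D4:**
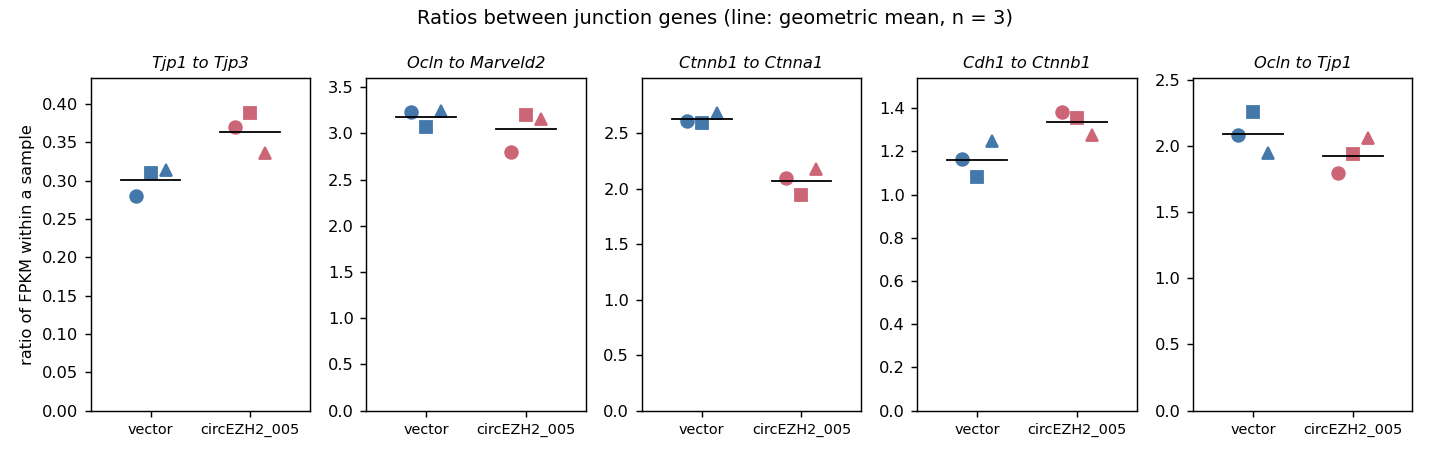
Ratio of FPKM between 5 pairs of junction genes within each sample (y axes, linear from 0), in vector (blue) and circEZH2_005 (red), with circles, squares and triangles for samples 1, 2 and 3 and a line at the geometric mean. Tjp1 to Tjp3 and Cdh1 to Ctnnb1 are higher and Ctnnb1 to Ctnna1 is lower in all 3 circEZH2_005 samples, and the other 2 ratios overlap.

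The genes with the pattern most like that of Ctnna1 were Rac1, a small GTPase that remodels actin, Flii, an actin-binding protein of the gelsolin family, and Abhd16a, a lipid hydrolase. The root mean square difference of log2 CPM, each gene being centred on its mean over the 6 samples, was 0.021 for Rac1 and 0.024 for both others, out of 13348 genes compared. Their log2 fold changes were 0.34, 0.32 and 0.31, and their adjusted p-values in edgeR were 0.0973, 0.0935 and 0.0982, none past the threshold. Among the other members F11r was the closest to Ctnna1 (0.057, with 92 genes closer), followed by Cdh1 (0.11), and Tjp3 was the farthest (0.27).

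The other genes of the junctions were read from lists of named components. Of 20 tight junction genes tested besides the members and the claudins, 0 passed the adjusted p of 0.05 in edgeR (3.67% of all genes tested did) and 6 had an unadjusted p under 0.05 (23.7% of all genes), with a median log2 fold change of 0.11. The claudins are the family that forms the paracellular barrier itself. Of 9 tested, 1 rose, Cldn4, from 17.4 ± 3.46 to 69.4 ± 4.82 CPM (log2 fold change 2.00, adjusted p = 0.00249, kept in 12 of 12 alternatives). 4 of the 9 claudins had an unadjusted p under 0.05, and the median was 0.25. Of 16 other adherens junction genes tested, 1 rose, Plekha7, which anchors microtubules at the adherens junction, from 84.8 ± 2.57 to 109 ± 6.13 CPM (log2 fold change 0.36, adjusted p = 0.0493). 8 of the 16 had an unadjusted p under 0.05, and the median was 0.07. The call of Plekha7 was kept in 1 of 12 alternative analyses. Of 10 desmosome genes, which build the spot-like contacts below the adherens junction, Pkp3 rose from 69.2 ± 3.12 to 99.2 ± 9.58 CPM (log2 fold change 0.52, adjusted p = 0.0332, kept in 6 of 12) and Ppl fell from 21.6 ± 3.91 to 12.2 ± 0.63 CPM (log2 fold change -0.82, adjusted p = 0.0342, kept in 5 of 12). 3 of the 10 had an unadjusted p under 0.05, and the median was 0.18.

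Partners and regulators of the members were read in the same way. Of 12 regulators of junctional actomyosin, 0 passed in edgeR and 2 had an unadjusted p under 0.05, with a median of 0.19. Of 12 genes of the β-catenin destruction complex and its TCF partners, 0 passed and 2 had an unadjusted p under 0.05, with a median of 0.11. Of the repressors of Cdh1 transcription, Snai1 and Twist1 were too low to be tested, and of the 3 tested 0 passed and 2 had an unadjusted p under 0.05 (23.7% of all genes). These 2 were low and went in opposite directions. Snai2 averaged 0.42 CPM in vector and 0.11 CPM in circEZH2_005, and Zeb2 averaged 0.75 and 2.28 CPM. Of 10 epithelial transcription factors 1 rose, Klf4, from 57.7 ± 6.23 to 168 ± 43.4 CPM (log2 fold change 1.54, adjusted p = 0.0138, kept in 10 of 12 alternatives). Of the epithelial markers 2 of 8 rose, Krt20 by 1.18 and Krt8 by 0.57 on the log2 scale (adjusted p = 0.0207 and 0.0301, kept in 10 and 6 of 12). Of the ISC markers 3 of 8 fell, among them Lgr5 (log2 fold change -0.88, adjusted p = 0.0434, kept in 3 of 12 alternatives) and Smoc2 (log2 fold change -0.81, adjusted p = 0.0203, kept in 8 of 12). Of the endothelial markers 1 of 4 tested rose, Pecam1 (log2 fold change 1.93, adjusted p = 0.0377, kept in 3 of 10), and of 9 mesenchymal and 12 leukocyte markers 0 passed in edgeR and 1 and 5 had an unadjusted p under 0.05, with positive estimates for all 12 leukocyte markers. Of the epithelial factors 3 of 10, of the epithelial markers 5 of 8, of the ISC markers 5 of 8 and of the endothelial markers 2 of 4 had an unadjusted p under 0.05.

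With DESeq2, whose adjusted p was under 0.05 for 13.6% of all genes, the same lists gave more calls. These were 2 of 20 tight junction genes, 3 of 9 claudins, 4 of 16 adherens junction genes and 3 of 10 desmosome genes. Among partners and regulators they were 1 of 12 actomyosin regulators, 1 of 12 genes of the β-catenin list, 1 of 3 Cdh1 repressors and 2 of 10 epithelial transcription factors. Among markers they were 3 of 8 epithelial, 5 of 8 ISC, 1 of 9 mesenchymal, 2 of 4 endothelial (Pecam1 and Esam) and 4 of 12 leukocyte genes.

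**Figure D5:**
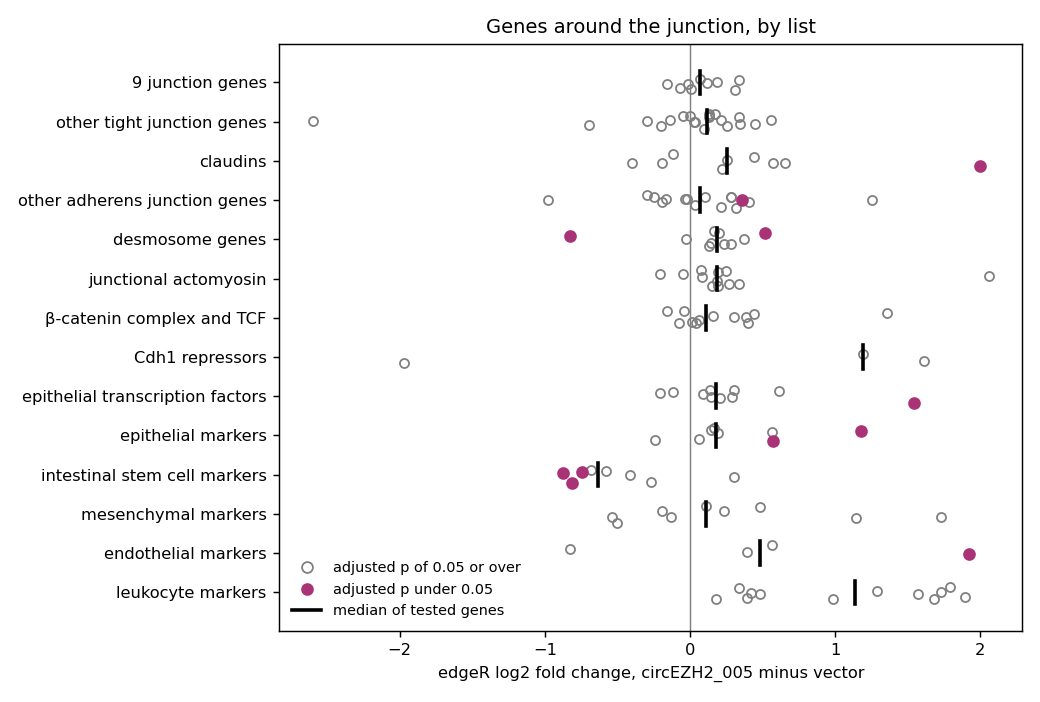
edgeR log2 fold change, circEZH2_005 minus vector (x axis), of each tested gene in the 9 junction genes and in 13 lists around them. Filled points passed an adjusted p of 0.05, open points did not, and the vertical bars are medians. The 9 junction genes lie between -0.16 and 0.34 with none filled, and Cldn4 at 2.00 is the filled point farthest from 0.

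The genes that the study itself turned on were read for reference. Ezh2, the host gene of circEZH2_005, had a log2 fold change of -0.13 (adjusted p = 0.511 from edgeR), and the circular RNA was not measured by this table of genes. Gprc5a, a membrane receptor the study followed, rose by 2.27 on the log2 scale (adjusted p = 0.00114).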

How the data were processed

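The authors deposited, for each of 28752 genes in each of 6 samples, a count of reads, not normalised, and an FPKM value. Per the labels, the processing tools were cutadapt 1.9, HISAT2 2.0.4, StringTie 1.3.4d and DESeq2, and the build was mm10. The table's control columns carry the name NC and were matched to the vector samples, the only control group. 0 columns of sample values were left unused. The 9 genes and the lists around them were chosen with earlier results of these data known, so no p-value was adjusted over a list.

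Genes were filtered with filterByExpr, scaled with TMM (factors 0.931 to 1.04) and tested for a group difference by quasi-likelihood in edgeR 4.0.16 (R 4.3.3), with no other term. A standard error was taken as the log2 fold change over the root of its F statistic, and p-values were adjusted by Benjamini-Hochberg over 18348 genes. Alternatives used DESeq2 1.42.0 (Wald test), limma 3.58.1 on log2 FPKM with a pseudocount of 1 or 0.1 and a mean of at least 0.5 FPKM, other scaling or no filter, a replicate block, and each sample left out. Leaving samples out of the FPKM ratios was added after seeing the data. Scripts were tested on simulated data. Named were every member, Ezh2, Gprc5a, from each list up to 2 genes with the largest and 2 with the smallest fold change past an adjusted p of 0.05, and the 3 genes most like the member with the smallest p where mean CPM was 1 or more. Genes that overlap a member, further cell type markers such as Epcam, Vil1, Olfm4, Vim, Esam and Ptprc, and the Cdh1 repressors were named outside this rule. RefSeq promoter windows (GRCm38.p6) spanned 250 bases before and 50 after a start, matches were sought before the start, and no protein sequence was used here. No pair of samples held more than 1.28% of genes with identical counts. The result for a gene among those named by this rule is not reported here.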

Additional observations from a re-analysis of the deposited data

How the results depend on the processing

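Over the 12 alternatives, the log2 fold changes of Tjp1, Tjp3, F11r, Cdh1 and Ctnna1 kept their direction, and no member passed the adjusted p of 0.05 except that DESeq2 called 1, Ctnna1. Over the 12 alternatives the adjusted p of Ctnna1 ran from 0.0168 to 0.255 and that of F11r from 0.111 to 0.378. On log2(FPKM + 1) and log2(FPKM + 0.1), Ocln turned to -0.078 and -0.080 and Marveld2 to -0.017 and -0.018, where the median of all genes was -0.07 and -0.09. With each sample left out in turn, Ocln ran from -0.037 to 0.072, Cgn from -0.201 to 0.039 and Ctnnb1 from -0.048 to 0.038. The FPKM ratios of Ctnnb1 to Ctnna1, Tjp1 to Tjp3 and Cdh1 to Ctnnb1 kept their direction with each sample left out, an analysis chosen after seeing the data.

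Over all genes, 674 passed with the main settings, 2490 with DESeq2, 169 without a filter on low counts and 277 with a replicate block, and between 28 and 1432 with each sample left out (28 without vector sample 1, 1432 without vector sample 2, 33 without vector sample 3, 68 without circEZH2_005 sample 2 and 169 without circEZH2_005 sample 3). The labels number the samples alike in both groups, but samples of the same number did not deviate together (correlations -0.14, -0.02 and 0.04), so the numbers were not taken as pairs, and the replicate block called 0 of the 9 members. The cause of these shifts was not tested, and with 3 samples per group a missed threshold does not show that a member was equal in both.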
